A study of Mus musculus with 4 samples.

Results

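The HIF subunits and oxygen sensors are the genes of the switch by which cells answer low oxygen. The 10 genes were taken from the 54532 rows of the deposited gene count table by matching each Ensembl identifier to its symbol: *Hif1a*, *Epas1* and *Hif3a* for the alpha subunits, *Arnt* and *Arnt2* for the beta subunits, *Egln1*, *Egln2* and *Egln3* for the prolyl hydroxylases, *Hif1an* for the asparaginyl hydroxylase, and *Vhl*. All 10 were found, and 9 had enough reads to be tested, *Hif3a* being the exception. The libraries are polyA-selected RNA from tumor-associated macrophages (TAMs), the macrophages that settle in a tumor, which were isolated with CD11b and F4/80 magnetic beads from tumors of NB9464, a MYCN-amplified mouse neuroblastoma line, 40 days after 4000000 cells were implanted. M7 and M8 came from mice labelled myeloid Syk wild type (SykMC-WT), and M9 and M10 from mice labelled myeloid Syk knockout (SykMC-KO), in which the study deleted a floxed *Syk* in lysozyme M-expressing myeloid cells of C57BL/6 mice. The sample labels name no drug treatment for either genotype. The methods of the study give the mice as 4 to 6 weeks old at implantation. The labels do not say whether the libraries of a genotype came from separate animals, so the p-values measure only the spread between these libraries. The same labels name bone marrow-derived macrophages as the source of the RNA beside the TAMs, and name adoptive transfer in the table's title.

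HIF is a transcription factor made of an oxygen-regulated alpha subunit and a constant beta subunit. In oxygen, the prolyl hydroxylases mark the alpha subunit, VHL binds the marked protein and a ubiquitin ligase sends it to the proteasome, while the asparaginyl hydroxylase blocks its contact with coactivators. When oxygen falls, the alpha subunit is kept, pairs with the beta subunit and turns on genes for glycolysis, vessel growth and pH control, including some of the sensors themselves. In macrophages both HIF-1 alpha and HIF-2 alpha are known to serve in inflamed and tumor tissue, and because the control acts mostly on the protein, the mRNA measured here does not give the HIF protein level. The study asked whether Syk in macrophages acts through HIF-1 alpha.

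Several measures of the libraries moved with the genotype labels. *Syk* itself was higher in the libraries labelled SykMC-KO, at 27.9 and 23.1 CPM (counts per 1000000 counts of a library, after TMM scaling of the library size) in M7 and M8 against 195.8 and 160.4 in M9 and M10 (log2 fold change 2.80, standard error 0.194, edgeR adjusted p = 0.000674), which goes against the labels, and the genotypes below are therefore those of the labels. The libraries held 20755886 to 23518045 counts, and with the TMM factors 3 counts were worth 0.109 to 0.164 CPM. Mitochondrial transcripts took 2.20% and 2.34% of the counts in M7 and M8 and 6.00% and 15.9% in M9 and M10. All 10 macrophage markers and all 6 pan-leukocyte genes were higher in M9 and M10, with summed macrophage markers of 916.5 to 1294 CPM in the libraries labelled SykMC-WT and 6224 to 10370 CPM in those labelled SykMC-KO. The median log2 fold change was 2.82 for the macrophage markers and 3.51 for the pan-leukocyte genes, beside 2.80 for *Syk*. The part of this shift in the *Syk* value was not tested. Of 8 fibroblast markers 6 were lower, with summed levels of 12820 to 14740 CPM against 4098 to 5042 CPM, so their sum exceeded that of the macrophage markers in M7 and M8, and of 8 endothelial markers 3 were lower (201.1 to 206.5 CPM against 141.3 to 150.7 CPM). The number of endothelial calls changed with the library left out, as that of all genes did. The endothelial median log2 fold change then ran from -1.12 to -0.74. No marker of these 4 lists was at 0 in every library. Of the neutrophil markers 5 of 6 could be tested and all 5 were higher, and 4 of 6 T cell markers were higher. The T cell calls rest on few reads. *Cd3d*, *Cd3e* and *Cd3g* held 1 to 4 counts in M7 and M8 and 11 to 41 in M9 and M10. *Lck*, at 84 to 134 counts, was not called (log2 fold change 0.17). The T cell calls were lost without M7 and without M8, where fewer of all genes were called too. Of the neuroblastoma cell genes, *Mycn* was at 22.2 and 21.4 CPM in M7 and M8 and at 29.3 and 43.5 CPM in M9 and M10 (log2 fold change 0.74, edgeR adjusted p = 0.0415), a call lost without M7 (adjusted p = 0.152) and without M8 (adjusted p = 0.223), and *Hand2* was at 178.0 to 301.2 CPM. In a bulk library fewer cells of a type and less RNA per cell cannot be told apart, and the part of these shifts in the results below was not tested.

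Of the 9 members tested, *Egln3* was higher in the libraries labelled SykMC-KO, *Epas1*, *Arnt* and *Arnt2* were lower, and *Hif1a*, *Vhl*, *Egln1*, *Egln2* and *Hif1an* did not pass the test. A gene is called at an adjusted p under 0.05 in edgeR's quasi-likelihood test, with the Benjamini-Hochberg adjustment over 16451 genes. Over all of these genes 22.7% were called higher and 16.7% lower, so 1 member higher and 3 lower of 9 cannot be read as particular to the family. TMM scaling sets the bulk of genes equal between libraries, and the median log2 fold change of all genes tested was 0.02 on that scale. That choice fixes the sign of small changes here: the median of all genes was -0.52 with library size alone and -2.70 with the libraries scaled to the macrophage markers. With library size alone 10.2% of all genes were higher and 32.9% lower, and 86.3% were lower with the macrophage scaling and 91.2% with scaling to the pan-leukocyte genes. A scaling shifts nearly all genes alike, so relative to the median of all genes the members moved little. *Epas1* lay 1.24 below that median under each of these scalings.

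**Figure D1:**
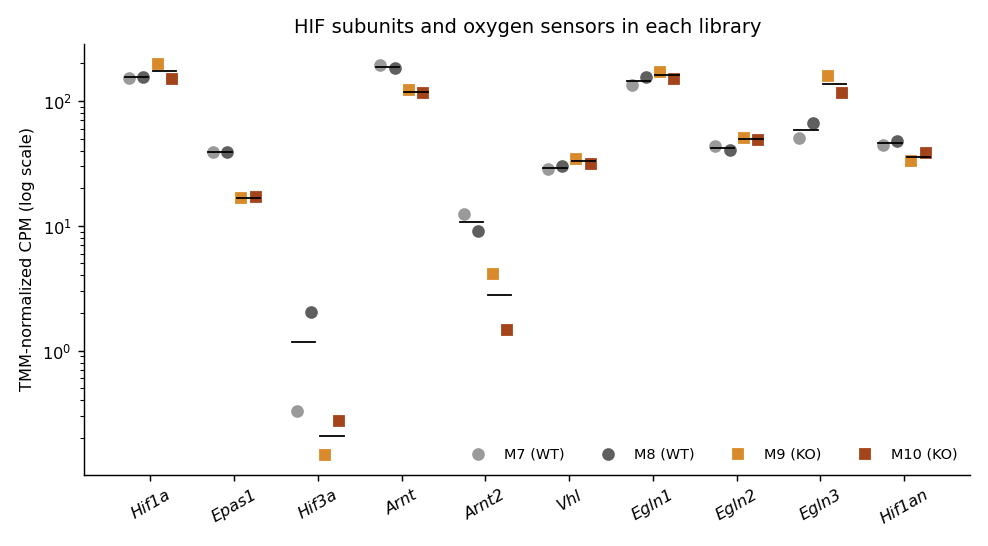
Level of each member in each library, as TMM-normalized CPM on a log axis, with circles for the libraries labelled SykMC-WT, squares for those labelled SykMC-KO, and bars at the mean of each genotype. *Epas1*, *Arnt* and *Arnt2* sit lower and *Egln3* higher in M9 and M10 than in M7 and M8, while the genotypes overlap for *Hif1a* and *Egln1*.

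The alpha subunits parted. *Hif1a* (ENSMUSG00000021109, chromosome 12, 73901375 to 73947530, plus strand, GRCm38) codes for the HIF-1 alpha subunit. The study followed that protein in bone marrow-derived macrophages cultured with NB9464 conditioned medium in low oxygen. *Hif1a* was at 152.5 and 156.4 CPM in M7 and M8, and at 199.5 and 149.8 CPM in M9 and M10. M9 was the highest library and M10 the lowest, so the genotypes overlapped. The means were 154 ± 2.74 CPM and 175 ± 35.2 CPM (SD, n = 2 each), and the log2 fold change of 0.18 had a 95% interval of -0.28 to 0.64 (edgeR adjusted p = 0.489). On the TMM scale, the interval leaves out a change of 1 log2 unit in either direction. Antisense *Gm15283* shares 330 exon bases with *Hif1a* but held only 7 to 35 counts in a library.

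*Epas1* (ENSMUSG00000024140, chromosome 17, 86753700 to 86833410, plus strand) codes for HIF-2 alpha, an alpha subunit known from endothelium, other stromal cells and some macrophages. It was at 39.2 CPM in both M7 and M8, and at 16.6 CPM in M9 and 17.0 CPM in M10. The libraries of a genotype lay close together and the genotypes were well apart. *Epas1* was 2.33-fold lower in the libraries labelled SykMC-KO (log2 fold change -1.22, 95% interval -1.61 to -0.83, edgeR adjusted p = 0.00294), and 14.9% of the genes tested had a lower log2 fold change. It was called lower under each alternative tried, but with the macrophage and pan-leukocyte scalings so were 86.3% and 91.2% of all genes. Without one library its log2 fold change ran from -1.29 to -1.22. The median log2 fold change of the fibroblast markers was -1.49 and that of the endothelial markers -0.75.

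*Hif3a* (ENSMUSG00000004328, chromosome 7, 17031507 to 17062427, minus strand), whose products include inhibitors of the other alpha subunits, was near the limit of detection. It had 9 and 50 counts in M7 and M8 (0.328 and 2.04 CPM) and 3 and 5 counts in M9 and M10 (0.146 and 0.272 CPM). M8 held most of its reads and the other libraries were close to one another. It fell below the filter on low counts and was not tested in the main comparison. With every gene of at least 1 count kept, its log2 fold change was -2.48 (edgeR adjusted p = 0.0476), and with DESeq2 it was -2.56 (adjusted p = 0.122).

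Within a library, counts divided by exon length allow levels of different genes to be compared. On that scale *Hif1a* made up 78.6% and 78.4% of the summed alpha subunits in M7 and M8 and 91.9% and 89.2% in M9 and M10. *Epas1* took 21.3% and 20.7% in the first pair and 8.09% and 10.7% in the second, and *Hif3a* 0.0589% to 0.896%. *Hif1a* was thus the main alpha transcript in every library. The ratio of *Hif1a* to *Epas1* was 3.69 and 3.78 in M7 and M8 and 11.4 and 8.35 in M9 and M10, a log2 difference of 1.38. The libraries of the genotypes did not overlap, but with 2 libraries on each side an exact permutation test, taken two-sided, gives no p under 0.333, which was the value for this ratio (0.444 adjusted over the 8 ratios compared).

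The beta subunits were both lower in the libraries labelled SykMC-KO. *Arnt* (ENSMUSG00000015522, chromosome 3, 95434388 to 95497240, plus strand), the widely expressed partner of every alpha subunit and of the dioxin receptor, was at 193.9 and 182.6 CPM in M7 and M8, and at 121.5 and 115.4 CPM in M9 and M10. Both libraries of one genotype lay above both of the other. It was 1.59-fold lower (log2 fold change -0.67, 95% interval -1.04 to -0.30, edgeR adjusted p = 0.0170). The call was lost without M7 (log2 fold change -0.63, adjusted p = 0.169) and without M8 (-0.72, adjusted p = 0.135).

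*Arnt2* (ENSMUSG00000015709, chromosome 7, 84246278 to 84410176, minus strand), the beta subunit best known from neurons, was a minor transcript. It was at 12.4 and 9.07 CPM in M7 and M8, and at 4.13 and 1.47 CPM in M9 and M10, from 27 counts in M10 to 339 in M7. M10 held the least and the genotypes did not overlap. *Arnt2* was 3.81-fold lower (log2 fold change -1.93, 95% interval -3.17 to -0.69, edgeR adjusted p = 0.0270). Its size rested on M9 and M10, as the log2 fold change was -2.95 without M9 and -1.36 without M10, and the call was lost without M7 (-1.69, adjusted p = 0.122) and without M8 (-2.15, adjusted p = 0.0540).

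Per exon length, *Arnt* made up 93.8% to 98.7% of the summed beta subunits in every library. *Hif1a* and *Arnt* were at nearly equal levels in M7 and M8, with ratios of 1.07 and 1.16, and *Hif1a* exceeded *Arnt* in M9 and M10, with ratios of 2.23 and 1.76 (log2 difference 0.83). In M7 and M8 *Arnt* held 5319 and 4488 counts and *Hif1a* 4183 and 3843, so the near equality rests on the lengths used. The ratio of *Epas1* to *Arnt* was 0.289 and 0.307 against 0.196 and 0.211 (log2 difference -0.55), so *Epas1* was lower by more than its partner. The ratio of *Arnt* to *Arnt2* was 15.1 and 19.3 against 28.3 and 75.3 (log2 difference 1.44).

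**Figure D2:**
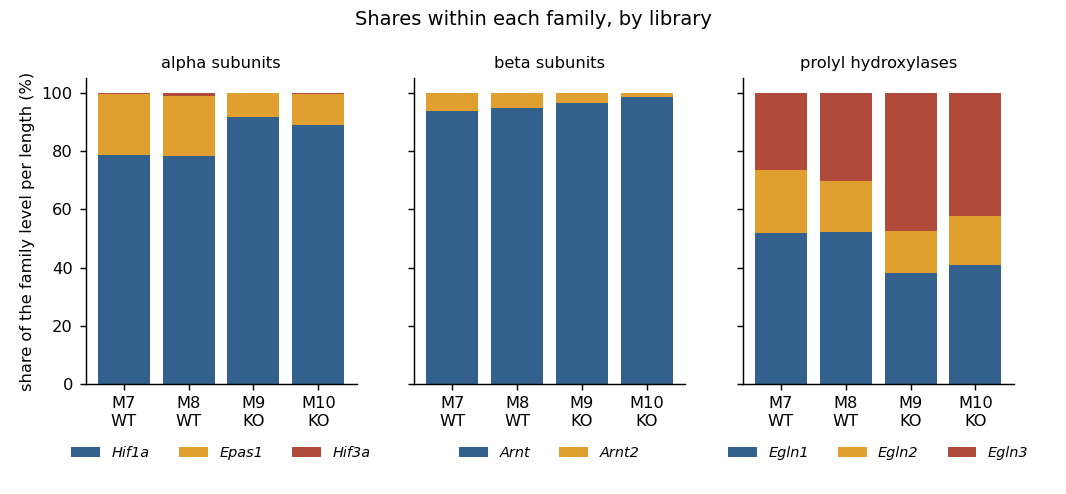
Share (%) of each gene in the summed level per exon length of its family, by library, for the alpha subunits, the beta subunits and the prolyl hydroxylases. The *Epas1* share is smaller and the *Egln3* share larger in M9 and M10 than in M7 and M8.

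Among the oxygen sensors, *Egln3* alone passed the test. *Egln3* (ENSMUSG00000035105, chromosome 12, 54178981 to 54203860, minus strand) codes for PHD3, a prolyl hydroxylase that is itself a known HIF target and so part of a feedback loop. It was at 50.8 and 67.2 CPM in M7 and M8, and at 157.8 and 115.8 CPM in M9 and M10. M9 was the highest, and both M9 and M10 lay above M7 and M8. *Egln3* was 2.32-fold higher (log2 fold change 1.21, 95% interval 0.67 to 1.76, edgeR adjusted p = 0.00841), and 86.0% of the genes tested had a lower log2 fold change. The call was lost without M7 (1.02, adjusted p = 0.0539) and with library size alone (0.69, adjusted p = 0.0685), and scaled to the macrophage markers *Egln3* was lower (-1.60). Relative to the all-gene median it lay 1.10 to 1.21 above under each of these scalings, which shift nearly all genes alike.

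*Egln1* (ENSMUSG00000031987, chromosome 8, 124908587 to 124949324, minus strand) codes for PHD2, the main sensor that sets HIF-1 alpha in normal oxygen. It was at 134.4 and 157.1 CPM in M7 and M8, and at 172.3 and 150.8 CPM in M9 and M10. The genotypes overlapped, with M10 below M8. The log2 fold change of 0.15 had a 95% interval of -0.26 to 0.56 (edgeR adjusted p = 0.522).

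*Egln2* (ENSMUSG00000058709, chromosome 7, 27158658 to 27166802, minus strand), which codes for PHD1, was at 43.8, 40.5, 50.3 and 48.7 CPM in M7 to M10. M9 and M10 lay slightly above M7 and M8, without passing the test (log2 fold change 0.23, 95% interval -0.13 to 0.60, edgeR adjusted p = 0.261). Per exon length, *Egln1* took 51.9% and 52.4% of the summed prolyl hydroxylases in M7 and M8 and 38.3% and 40.8% in M9 and M10. *Egln3* took 26.5% and 30.3% in the first pair and 47.4% and 42.3% in the second. *Egln3* was therefore below *Egln1* in M7 and M8, with ratios of 0.510 and 0.577, and slightly above it in M9 and M10, with ratios of 1.24 and 1.04 (log2 difference 1.06). The ratio of *Egln2* to *Egln1* overlapped between the genotypes, at 0.418 and 0.331 against 0.375 and 0.415.

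*Hif1an* (ENSMUSG00000036450, chromosome 19, 44562850 to 44576274, plus strand) codes for FIH, the asparaginyl hydroxylase that limits HIF's contact with coactivators. It was at 44.3 and 47.5 CPM in M7 and M8, and at 32.8 and 38.2 CPM in M9 and M10. M9 and M10 were the lower pair, and the log2 fold change of -0.37 did not pass the test (95% interval -0.77 to 0.03, edgeR adjusted p = 0.119). It passed with library size alone (-0.91, adjusted p = 0.00785) and without M10 (-0.47, adjusted p = 0.0335). The ratio of *Hif1an* to *Hif1a* was 0.259 and 0.271 against 0.147 and 0.228, a log2 difference of -0.54.

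*Vhl* (ENSMUSG00000033933, chromosome 6, 113623959 to 113631633, plus strand), the substrate-binding part of the ligase that removes hydroxylated alpha subunits, was at 28.4 and 30.1 CPM in M7 and M8, and at 34.1 and 31.5 CPM in M9 and M10. The genotypes differed by a log2 fold change of 0.16 (95% interval -0.22 to 0.55, edgeR adjusted p = 0.449). The ratio of *Vhl* to *Hif1a* overlapped, at 0.366 and 0.379 against 0.336 and 0.414.

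**Figure D3:**
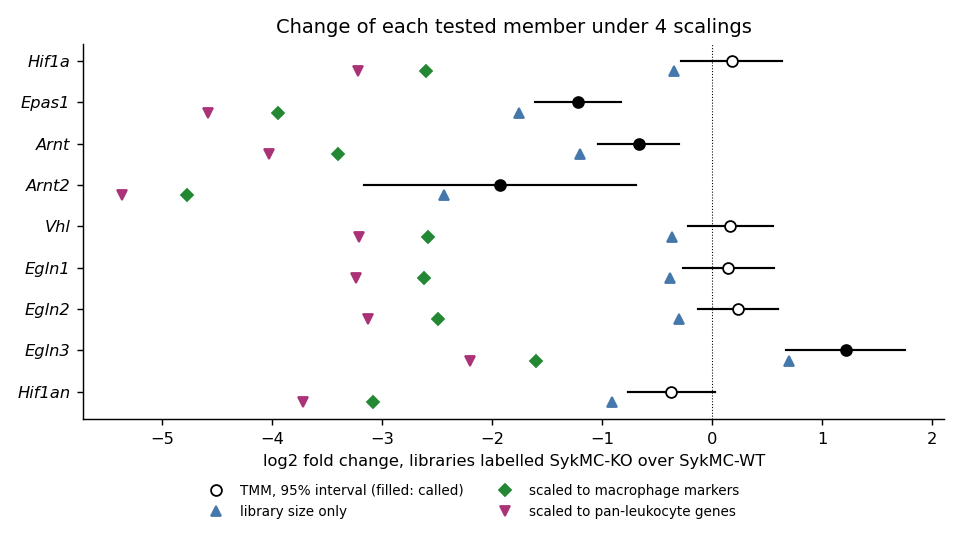
Log2 fold change of the 9 tested members, libraries labelled SykMC-KO over SykMC-WT. Circles with 95% intervals are on the TMM scale, filled where the gene was called, and the other symbols give the same members with library size alone and with scaling to macrophage markers or pan-leukocyte genes. Each other scaling shifts all members together, and *Arnt2* is the lowest and *Egln3* the highest member under each of the 4.

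Per exon length, the order of mean levels in the libraries labelled SykMC-WT was *Egln1*, *Hif1a*, *Arnt*, *Egln3*, *Egln2*, *Vhl*, *Epas1*, *Hif1an*, *Arnt2* and *Hif3a*. Of its neighbours, *Arnt* and *Egln3* overlapped, as did *Epas1* and *Hif1an*. In the libraries labelled SykMC-KO the order was *Egln3*, *Egln1*, *Hif1a*, *Egln2*, *Arnt*, *Vhl*, *Hif1an*, *Epas1*, *Arnt2* and *Hif3a*. There *Egln3* overlapped *Egln1*, *Egln1* overlapped *Hif1a*, and *Arnt* overlapped both *Egln2* and *Vhl*. Of the 8 ratios between members, 6 did not overlap between the genotypes, beside 73.9% of the ratios of all pairs of tested genes, a share so close that nothing particular to the family can be read from the count. None of the ratios changed with the scaling of the libraries, which cancels within a library.

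Exon length moved with the comparison too. Among tested protein-coding genes the median log2 fold change was 0.54 in the shortest of 4 equal classes by exon length, which holds *Egln3*, 0.15 in the next, with *Vhl*, *Egln1* and *Egln2*, and -0.02 in the third, with *Hif1a*, *Epas1* and *Hif1an*. In the longest class, which holds *Arnt* and *Arnt2*, it was -0.21. *Egln3* lay above and *Epas1*, *Arnt* and *Arnt2* below the median of their own class. The part of length in these differences, and in those of the gene lists below, was not tested.

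The genes whose profile over the 4 libraries was nearest to a member's were found among 9812 protein-coding genes with an average of at least 10 CPM, by the Euclidean distance of centred log2 CPM. For *Hif1a* they were *Entpd7* (distance 0.0383), *Ccdc32* and *Pnpla7*. Nearest to *Epas1* were *Dgkh* (distance 0.0375), *Phldb1* and *Numbl*. For *Egln3* they were *Sema6b* (distance 0.126), *Nfkbiz* and *Vps13d*. The profiles share the depth and makeup of the same 4 libraries, and the distances are a description.

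The ligase around VHL is built from elongins, a cullin, a RING protein and the cullin modifier NEDD8. Of the 5 partners measured, 4 were higher in the libraries labelled SykMC-KO, beside 22.7% of all genes, with a list median of 0.98 beside 0.02 for all genes, which became -1.80 beside -2.70 when scaled to the macrophage markers. *Eloc* (elongin C) was at 34.8 and 30.8 CPM in M7 and M8 and 82.8 and 60.4 in M9 and M10 (log2 fold change 1.13, edgeR adjusted p = 0.00759). *Elob*, *Rbx1* and *Nedd8* had log2 fold changes of 0.93, 1.05 and 0.98. *Elob* and *Nedd8* fall in the shortest exon length class, where the median was 0.54 and 1353 of 3495 genes were higher. The other partners fall in longer classes, and the part of length was not tested. The scaffold *Cul2* was at 30.4 and 33.1 CPM against 47.9 and 37.4 (0.43, edgeR adjusted p = 0.112). Without M8 the calls of *Eloc*, *Elob*, *Rbx1* and *Nedd8* were lost, where fewer of all genes were called too. The list median ran from 0.73 to 1.10 without one library. With library size alone none of the 5 was called by edgeR (2 at an unadjusted p under 0.05), beside 10.2% of all genes higher. DESeq2 called 4 higher, beside 19.5% of all genes.

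Cofactors and stability regulators of HIF moved in both directions, with 6 of 12 tested genes higher and 2 lower, beside 22.7% and 16.7% of all genes, and a median of 0.64. *Siah2*, a ubiquitin ligase that removes prolyl hydroxylases, was at 7.22 and 6.67 CPM in M7 and M8 and at 22.7 and 19.1 in M9 and M10 (log2 fold change 1.59, edgeR adjusted p = 0.00379). *Hsp90aa1*, an inducible chaperone that holds HIF-1 alpha stable, rose from 313.7 and 304.3 CPM to 814.9 and 901.0 (1.47, edgeR adjusted p = 0.00257). *Os9* and *Cited2*, the latter a HIF target that competes for coactivators, had log2 fold changes of 0.88 and 0.76. The deubiquitinases *Usp20* (-1.06) and *Usp33* (-0.77), which VHL is known to target, were lower. The coactivators *Ep300* (-0.43) and *Crebbp* (-0.28) did not pass the test. Without M7 or without M8 the calls of *Os9*, *Cited2* and *Usp33* were among those lost, where fewer of all genes were called too. The list median was then 0.76 and 0.63. With library size alone 2 genes of the list were higher and 4 lower, beside 10.2% and 32.9% of all genes. With the macrophage scaling 11 of the 12 were lower, beside 86.3% of all genes.

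The other bHLH-PAS factors are relatives of the HIF subunits that sense ligands or keep the clock. They included 5 lower genes among the 9 tested, beside 16.7% of all genes, with a median of -1.47. The other 4 were not called. Of those 4, *Npas1*, *Npas3* and *Npas4* held only 3 to 30 counts in a library. Their log2 fold changes (0.51, -1.43 and -2.39) enter the list median. *Ahr*, the dioxin receptor, which shares ARNT with HIF, was at 201.9 and 240.8 CPM in M7 and M8 and at 54.7 and 48.6 in M9 and M10 (log2 fold change -2.10, edgeR adjusted p = 0.000899). *Arntl2* was at 29.2 and 32.5 CPM against 5.49 and 6.16 (-2.40, edgeR adjusted p = 0.000951). *Npas2* (-1.91), *Ahrr* (-1.47) and *Clock* (-0.77) were the other lower genes. Without M7 or without M8 the calls of *Ahrr* and *Clock* were lost, where fewer of all genes were called too. This list lay 1.46 to 1.48 below the all-gene median under TMM, library size alone and both marker scalings. A scaling shifts nearly all genes alike, so it could hardly move this difference. Without one library the difference ran from -1.87 to -1.52.

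Of 13 other oxygen-dependent dioxygenases, 7 were lower and 1 was higher, beside 16.7% and 22.7% of all genes, with a median of -1.02. *Plod2*, a collagen lysyl hydroxylase, was at 200.7 and 255.1 CPM in M7 and M8 and at 54.0 and 56.9 in M9 and M10 (log2 fold change -2.04, edgeR adjusted p = 0.00107). *Kdm3a*, a histone demethylase, was at 167.1 and 213.8 CPM against 53.4 and 66.0 (-1.67, edgeR adjusted p = 0.00219). The collagen prolyl hydroxylases *P4ha3* (-1.64) and *P4ha2* (-1.16) and the demethylases *Kdm6a* (-1.06) and *Kdm5a* (-1.02) were lower too. *Ado*, a cysteamine and protein cysteine dioxygenase, named after its value was seen, was the 1 higher gene on the TMM scale (0.68, edgeR adjusted p = 0.0155). Its call was lost without M7 and without M8. Without M8 the calls of *P4ha3* and *Kdm6a* were among those lost, where fewer of all genes were called too, and the list median was -0.95. With library size alone 9 of the 13 were lower, beside 32.9% of all genes, and with the macrophage scaling all 13 were, beside 86.3%. Several of these enzymes modify collagen, of which *P4ha1* (0.35), *Plod1* (0.13) and *Plod3* (-0.16) were not called. The fibroblast markers went from 12820 and 14740 CPM summed in M7 and M8 to 4098 and 5042 in M9 and M10. A link between them and this list was not tested.

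The 35 hypoxia response genes, known HIF targets from several tissues, spread to both sides. On the TMM scale 10 were higher, 9 were lower and 16 were not called, or 10 and 9 of 35 beside 22.7% and 16.7% of all genes, with a median of 0.35 and a range of -2.35 to 3.36. The list includes *Egln1* and *Egln3* of the members and 4 of the dioxygenases above. *Slc16a3*, the lactate exporter MCT4, was at 30.04 and 24.5 CPM in M7 and M8 and at 373.5 and 187.6 in M9 and M10 (log2 fold change 3.36, 95% interval 2.50 to 4.22, edgeR adjusted p = 0.00159). *Hmox1*, which degrades heme and is also an oxidative stress gene, was at 216.7 and 261.2 CPM against 2386 and 976.9 (2.81, 95% interval 1.75 to 3.88, edgeR adjusted p = 0.00493). *Cxcr4*, a chemokine receptor of leukocytes, was at 30.5 and 19.2 CPM against 143.5 and 104.0 (2.31, edgeR adjusted p = 0.00218). These are the genes with the largest rise, and the macrophage markers had a median of 2.82.

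*Car9*, a carbonic anhydrase at the cell surface and a widely used hypoxia marker, was at the other end. It was at 75.9 and 100.6 CPM in M7 and M8 and at 16.6 and 18.0 in M9 and M10 (log2 fold change -2.35, 95% interval -2.83 to -1.87, edgeR adjusted p = 0.000898). *Vegfa*, the main vessel growth factor, was also lower (-0.91), a call lost without M8 (adjusted p = 0.105). Genes of glycolysis and its control in the list did not move together. *Ldha* was at 808.9 and 780.1 CPM against 1898 and 1401 (1.05, edgeR adjusted p = 0.0167) and *Pgk1* at 828.8 and 842.3 CPM against 1758 and 1268 (0.86, edgeR adjusted p = 0.0332). Both calls were lost without M7 and without M8, and that of *Pgk1* also without M9 (0.52, adjusted p = 0.0735). *Aldoa* was higher (1.18), *Hk2* (0.36), *Pfkfb3* (0.03) and *Pfkfb4* (0.58) were not called, and *Pdk1* was lower (-0.97). *Adm*, the vasodilator adrenomedullin, was at 9.95 and 11.6 CPM against 41.8 and 24.3 (1.61, edgeR adjusted p = 0.00794). The glucose transporter *Slc2a1* (0.36, 95% interval -0.33 to 1.06, edgeR adjusted p = 0.353) and the mitophagy gene *Bnip3* (0.05, 95% interval -0.60 to 0.71, edgeR adjusted p = 0.890) did not pass the test, and for both M9 was the highest library while M10 lay among or below M7 and M8.

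**Figure D4:**
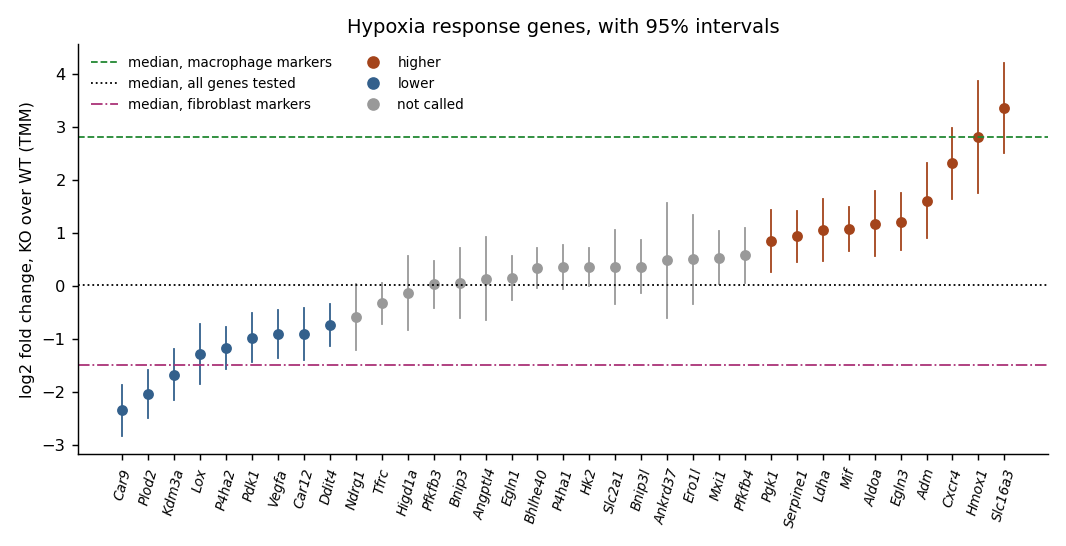
Log2 fold change (TMM scale) of the 35 hypoxia response genes with 95% intervals, in order, coloured by call. Dashed lines give the median of the macrophage markers (2.82), of all genes tested (0.02) and of the fibroblast markers (-1.49), and the genes run from *Car9* at -2.35 to *Slc16a3* at 3.36.

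The number of called genes in this list depended on the libraries and the scaling. Without one library the number of calls changed over all genes too, so the list median is given. It was 0.25 without M7, 0.40 without M8, -0.16 without M9 and 0.43 without M10. The medians of all genes were 0.04, 0.03, -0.06 and -0.07 in that order. With library size alone 4 genes of the list were higher and 11 lower, beside 10.2% and 32.9% of all genes. With the libraries scaled to the macrophage markers 32 of the 35 were lower and none was higher by edgeR, at an unadjusted p under 0.05 either, and 86.3% of all genes were lower there too. Relative to the median of all genes, the list median lay 0.34 above with TMM and with library size alone, and 0.27 above with the macrophage scaling, but 0.10 below it without M9 (list median -0.16, all genes -0.06).

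HIF binds the core letters ACGTG or GCGTG, and the promoters of the members and of the list were searched for both on both strands, from 250 bases before to 50 after each start in the RefSeq table (GRCm38.p6). Read on the other strand, ACGTG is CACGT, and a match may lie within the E-box CACGTG, which 7.15% of all promoters hold. A match was found in 7 of 10 promoters of 9 members (70.0%) and in 31 of 38 promoters of 27 hypoxia response genes (81.6%), beside 14380 of 32851 promoters of all genes (43.8%). The promoters of *Vhl*, *Arnt2* and *Hif1an* held no match, and *Epas1* is not in the table. A match is a description of the letters and does not show binding. The promoters of *Egln3*, the sensor that was higher, of *Egln1*, its paralog that was not called, and of the genes at both ends of the hypoxia list are shown, with the matches in capitals. They are from chr12:54203825-54204124 (minus strand), chr8:124949205-124949504 (minus strand), chr4:43506776-43507075 (plus strand) and chr11:120948817-120949116 (plus strand), in that order.
Egln3: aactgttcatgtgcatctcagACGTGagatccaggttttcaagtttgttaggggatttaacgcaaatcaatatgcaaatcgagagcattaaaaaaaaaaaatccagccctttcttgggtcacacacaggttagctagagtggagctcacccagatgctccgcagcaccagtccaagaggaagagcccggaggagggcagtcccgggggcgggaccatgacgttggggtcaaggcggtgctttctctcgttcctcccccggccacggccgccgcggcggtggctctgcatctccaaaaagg
Egln1: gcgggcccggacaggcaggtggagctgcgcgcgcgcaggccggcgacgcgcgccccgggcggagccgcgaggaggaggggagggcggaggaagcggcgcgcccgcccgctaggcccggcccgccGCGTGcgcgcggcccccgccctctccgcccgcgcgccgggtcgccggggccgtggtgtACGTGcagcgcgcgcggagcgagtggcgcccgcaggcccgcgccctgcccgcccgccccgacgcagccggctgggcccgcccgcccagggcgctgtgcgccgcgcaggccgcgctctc
Car9: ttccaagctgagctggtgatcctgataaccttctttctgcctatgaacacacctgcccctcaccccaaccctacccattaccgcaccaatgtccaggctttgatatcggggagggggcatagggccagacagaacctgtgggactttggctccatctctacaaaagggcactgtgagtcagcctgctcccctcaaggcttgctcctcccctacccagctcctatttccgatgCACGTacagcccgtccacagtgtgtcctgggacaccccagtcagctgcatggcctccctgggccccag
Slc16a3: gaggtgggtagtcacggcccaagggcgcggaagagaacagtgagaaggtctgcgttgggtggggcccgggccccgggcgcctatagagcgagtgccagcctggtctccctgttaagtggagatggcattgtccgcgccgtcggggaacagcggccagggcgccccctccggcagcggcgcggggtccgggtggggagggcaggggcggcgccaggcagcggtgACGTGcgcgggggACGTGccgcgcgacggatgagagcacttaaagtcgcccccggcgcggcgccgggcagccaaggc
*Egln3* and *Car9* have 1 match each and *Egln1* and *Slc16a3* have 2 each, so the number of matches did not follow the direction of the 4 genes.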

How the data were processed

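Gene-level read counts of 4 RNA sequencing libraries were analysed as deposited by the authors. Per the labels, polyA-selected libraries were sequenced paired-end, and the submitters' processing notes name STAR 2.6.1d, Salmon 1.4.0, SAMtools 1.9, Picard 2.26, MultiQC 1.11 and the build mm10. The methods of the study describe mapping by STAR at its default settings and quantification by Salmon within a bcbio pipeline. How the whole-number table was made from these and whether strand was used are not given in the sources used here. The methods also describe single reads, where the labels give paired-end reads, and triplicates, where 2 libraries per genotype were analysed here. Of the rows 54495 matched GENCODE M21, which gave symbols, positions and exon lengths. Libraries held 20755886 to 23518045 counts, and intervals cover the model's error only.

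Genotypes were compared with edgeR 4.0.16 (R 4.3.3): TMM factors, filterByExpr, the quasi-likelihood test and Benjamini-Hochberg adjustment over all genes tested. The code was tested on simulated data. CPM values are TMM-normalized. Levels between genes are counts per exon length, scaled to the same sum in every library, and ratios were compared with an exact two-sided permutation test. Exon length is that of the merged exons of all annotated transcripts of a gene, which can differ from that of the expressed mRNA. DESeq2 1.42.0, other scalings (library size alone, macrophage markers, pan-leukocyte genes), filters and libraries left out were alternatives. Replicates differed beyond counting noise in both genotypes (chi-square per degree of freedom 50.6 and 167.7), so no library was treated as deposited again under another name, which does not show that they came from separate animals.

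The members and all gene lists were chosen with earlier results of these data known. Named genes are *Syk*, the members, up to 6 called genes with the largest absolute log2 fold change of each pathway list, *Vegfa*, *Slc2a1*, *Ldha*, *Pgk1*, *Bnip3* and *Adm*, and the 3 nearest profiles of *Hif1a*, *Epas1* and *Egln3*. *Cul2*, *Ep300*, *Crebbp*, *Ado*, *P4ha1*, *Plod1*, *Plod3*, *Mycn*, *Hand2*, *Aldoa*, *Hk2*, *Pfkfb3*, *Pfkfb4* and *Pdk1* were added after their values were seen. So were *Npas1*, *Npas3*, *Npas4*, *Cd3d*, *Cd3e*, *Cd3g* and *Lck*. Promoter sequences are from RefSeq. The neuroblastoma cell list as a whole is not reported here.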

Additional observations from a re-analysis of the deposited data

How the results depend on the processing

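With 2 libraries per genotype, 1 library can decide a call, and a library left out leaves a lone sample assumed to vary like the others. Of the members, 1 was higher and 3 were lower on the TMM scale. With library size alone 0 were higher by edgeR (1 at an unadjusted p under 0.05) and 4 lower, beside 10.2% and 32.9% of all genes. With macrophage or pan-leukocyte scaling 0 were higher, at an unadjusted p too, and 9 lower, where 86.3% and 91.2% of all genes were lower. DESeq2 gave 1 higher and 3 lower, beside 19.5% and 15.9% of all genes. Without one library the number of members called changed as that of all genes did, so it is not read as a trait of the members. The log2 fold change of *Epas1* then ran from -1.29 to -1.22 and that of *Arnt* from -0.79 to -0.62. That of *Arnt2* ran from -2.95 to -1.36 and that of *Egln3* from 0.89 to 1.43. Of the hypoxia response genes (10 higher and 9 lower), 4 were higher with library size alone, and 0 were higher with macrophage or leukocyte scaling, where 32 and 33 were lower, as most genes were. DESeq2 gave 10 and 9. When called genes also had to change by 1 log2 unit or more, 5 were lower. Without one library 5 to 19 were higher and 6 to 12 lower. The sign of small changes turned: with library size alone, macrophage scaling and leukocyte scaling, in that order, the log2 fold change of *Hif1a* was -0.35, -2.60 and -3.21, of *Vhl* -0.37, -2.58 and -3.21, of *Egln1* -0.38, -2.62 and -3.23, and of *Egln2* -0.30, -2.49 and -3.12. *Egln3* was at -1.60 and -2.20 with macrophage and leukocyte scaling. These scalings set other genes equal by construction and shift all members together. Without one library, *Hif1a* ran from -0.13 to 0.38, *Egln1* from -0.039 to 0.25, the log2 ratio difference of *Egln2* to *Egln1* from -0.085 to 0.25 and that of *Vhl* to *Hif1a* from -0.15 to 0.15, and the cause was not tested. *Epas1* was lower in every alternative run, as most genes were with macrophage or leukocyte scaling. No paired analysis was possible because the replicate numbers are not shared between the genotypes. Of the members, low counts limit *Hif3a* and *Arnt2*.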
